A study of Mus musculus with 2 samples.

Results

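The genes described here encode the proteins that drive mitosis and separate the chromosomes. They are a list of 52 gene symbols, set by function and not by a threshold on their values, out of 14732 gene symbols listed in at least 1 of 2 RNA sequencing libraries. All 52 genes were listed in both libraries, and all 52 were among the 9925 genes called expressed, meaning at least 1 RPKM in at least 1 library. RPKM is the number of reads of a gene scaled to its transcript length and to the depth of the library, so it allows levels to be compared between genes. No further normalization between the libraries is named, and ratios close to 0 depend on how the libraries are scaled.

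Both libraries came from CD8+ T cells of OT-I transgenic C57BL/6 mice aged 6 to 8 wk, taken from spleen and lymph nodes. OT-I T cells carry a T cell receptor that recognizes the ovalbumin peptide SIINFEKL. The cells of both groups received 2.5 ng/mL of the peptide and 10 U/mL IL-2 for 24 h, then a retroviral vector with an IRES-hCD2 cassette, sorting of hCD2+ cells 48 h later, and 3 days of restimulation with the same doses. In the group named Ctrl the vector was empty, and in the group named Eomes it encoded *Eomes*, a T-box transcription factor. Expression from the vector is forced, the starting cells are all of 1 T cell receptor, and how many mice were pooled is not given in the sources used here. Each group has 1 library, so the comparison has no replicate check, no p-value is given, and every difference below is a difference between 2 libraries. The cells were sequenced in bulk, so a different number of dividing cells and a different amount of mitotic RNA per dividing cell cannot be told apart.

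*Eomes* was at 2.47 RPKM in Ctrl and 129.6 RPKM in Eomes, a log2 ratio of 5.71, in the direction the labels give. The Ctrl library listed 14110 genes and the Eomes library 13966, with medians of 5.71 and 5.84 RPKM, and depths read from the spacing of low values were about 19150000 and 18850000 reads. All 8 markers of CD8+ T cells were at 1 RPKM or more, with a summed level of 1605.14 RPKM in Ctrl and 1223.9 RPKM in Eomes. *Cd8a* itself was at 181.8 RPKM in Ctrl and 99.1 RPKM in Eomes. Of the markers of other cells, 0 of 2 for CD4+ T cells (with *Cd4* and *Foxp3* each under 0.1 RPKM), 1 of 5 for B cells, 2 of 8 for myeloid and dendritic cells, 2 of 3 for NK cells and 0 of 3 for erythroid cells reached 1 RPKM. The summed myeloid and dendritic markers were at 31.59 RPKM in Ctrl and 11.46 RPKM in Eomes, mainly *Cd74* (20.21 and 4.82 RPKM) and *H2-Ab1* (11.06 and 6.2 RPKM), while *Lyz2*, *Csf1r* and *Adgre1* were not listed in either. The summed B cell markers were at 2.87 and 1.62 RPKM, and the summed NK markers, nearly all *Nkg7*, at 650.04 and 791.15 RPKM, with *Ncr1* not listed. The NK marker *Klrb1c* was at 0.31 RPKM in Ctrl and 5.74 RPKM in Eomes, a log2 ratio of 4.21 and position 5 of 9925 expressed genes. Whether these differences play a part in the values below was not tested.

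In a dividing cell, Cdk1 bound to a cyclin starts mitosis, condensin folds each chromosome, and spindle microtubules attach to kinetochores built on the centromeres. The spindle checkpoint holds back the anaphase-promoting complex until all kinetochores are attached, after which securin and cyclin B are destroyed, separase cuts cohesin, and the cell divides at the midzone. Most of these genes are transcribed in G2 and mitosis, through promoter elements known as the CCAAT box and the cell cycle genes homology region (CHR). An activated CD8+ T cell divides quickly, and the level of these genes in a culture is commonly read as a measure of its cycling cells.

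Promoters were read from RefSeq windows on GRCm38.p6 that run from 250 bases before to 50 bases after each annotated start, and 44 of the 52 genes had such a window. The CCAAT box was searched as CCAAT or ATTGG (the other strand), and 33 of 44 genes (75%) had at least 1. The share was 43.5% of the 7938 expressed genes with a window. It was 41.1% of all 27025 genes with a RefSeq window, whether listed in these libraries or not. The CHR was searched as TTTGAA or TTCAAA (the other strand), and 33 of 44 genes (75%) had at least 1, against 14.0% of the expressed genes and 20.2% of all genes. Both motifs stood in the same window for 29 of 44 genes (65.9%), against 5.95% of the expressed genes and 7.97% of all genes, and they overlapped in 1 of the 47 windows of the 44 genes. At least 2 CCAAT boxes stood in the windows of 22 genes (50%), against 17.5% of the expressed genes. The core T-box motif AGGTGTGA (TCACACCT on the other strand) was in the windows of 0 of the 44 genes, of 1.02% of the expressed genes and of 1.48% of all genes. A match is a description of the letters only, and a missing match says nothing of where Eomes binds.

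The 200 bases before the start are printed for 6 genes to show how the same pair of motifs lies in front of genes with high and low ratios between the libraries. Of 15 genes considered that had both motifs in these 200 bases, 10 had at most 30 of the bases in exons of protein-coding genes, and the 6 are those of the 10 with the 3 highest and the 3 lowest log2 ratios. The sequences run 5′ to 3′ toward the start, with every CCAAT box and CHR on either strand in capitals.
Ncapg (chr5:45669725-45669924, plus strand): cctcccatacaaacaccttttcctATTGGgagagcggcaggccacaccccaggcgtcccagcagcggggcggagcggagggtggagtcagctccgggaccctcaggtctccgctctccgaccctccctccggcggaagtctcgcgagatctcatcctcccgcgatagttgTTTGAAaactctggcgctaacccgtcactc
Smc2 (chr4:52439021-52439220, plus strand): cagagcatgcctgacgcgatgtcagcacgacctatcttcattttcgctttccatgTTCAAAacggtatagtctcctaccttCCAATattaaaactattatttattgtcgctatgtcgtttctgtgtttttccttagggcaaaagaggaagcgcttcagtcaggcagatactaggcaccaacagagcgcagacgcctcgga
Mki67 (chr7:135716380-135716579, minus strand): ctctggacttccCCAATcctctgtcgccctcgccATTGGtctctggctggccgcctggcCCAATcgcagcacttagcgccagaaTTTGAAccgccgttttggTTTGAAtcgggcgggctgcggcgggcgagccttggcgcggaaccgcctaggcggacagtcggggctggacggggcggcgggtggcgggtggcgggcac
Ccnb2 (chr9:70421555-70421754, minus strand): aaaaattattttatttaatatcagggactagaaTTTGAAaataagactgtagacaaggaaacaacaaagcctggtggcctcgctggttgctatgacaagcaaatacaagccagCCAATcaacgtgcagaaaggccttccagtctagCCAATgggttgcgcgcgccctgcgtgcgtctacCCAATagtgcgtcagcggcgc
Espl1 (chr15:102296093-102296292, plus strand): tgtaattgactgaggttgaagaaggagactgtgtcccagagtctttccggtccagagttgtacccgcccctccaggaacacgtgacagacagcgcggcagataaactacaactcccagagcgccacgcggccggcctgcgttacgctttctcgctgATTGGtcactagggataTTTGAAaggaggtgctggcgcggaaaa
Cdc20 (chr4:118437344-118437543, minus strand): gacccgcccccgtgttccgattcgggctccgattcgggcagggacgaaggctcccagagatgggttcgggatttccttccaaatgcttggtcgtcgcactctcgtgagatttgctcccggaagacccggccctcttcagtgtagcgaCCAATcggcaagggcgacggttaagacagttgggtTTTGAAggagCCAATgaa
In *Ncapg*, with a log2 ratio of 0.48, the only CHR began 30 bases before the start and the only CCAAT box 176 bases before it. *Mki67*, with a log2 ratio of 0.45, had 3 CCAAT boxes and 2 CHRs. *Ccnb2*, with a log2 ratio of 0.0042, also had 3 CCAAT boxes, which began 87, 54 and 21 bases before the start. Its CHRs began 167 bases before the start and, outside the printed stretch, 4 bases after it. In *Cdc20*, with a log2 ratio of -0.07, the CHR began 18 bases before the start, between CCAAT boxes at 53 and 8 bases. Motif content did not separate the ratios in these windows. The 33 genes with a CHR had a median log2 ratio of 0.16 and the 11 without it 0.19, and the medians were the same for the 33 genes with and the 11 without a CCAAT box.

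**Figure D1:**
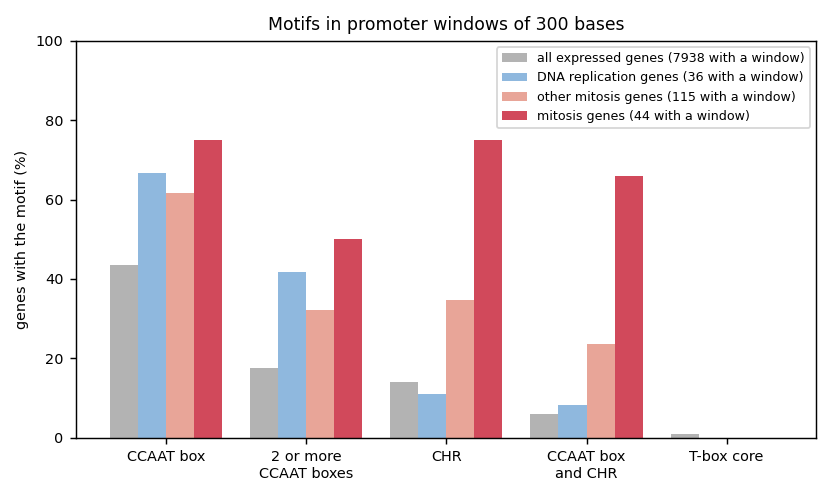
Share of genes (%, vertical axis, from 0) whose RefSeq promoter window of 300 bases holds each motif, for all expressed genes, DNA replication genes, other mitosis genes and the 52 mitosis genes (bars, with the number of genes that have a window). The CHR bar of the mitosis genes stands at 75%, above 34.8% for other mitosis genes, 11.1% for DNA replication genes and 14.0% for all expressed genes. The T-box core is absent from all 3 cell cycle lists and rare in general, at 1.02% of all expressed genes.

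Most of the 52 genes were slightly higher in the Eomes library than in the Ctrl library. The log2 ratio of Eomes over Ctrl was above 0 for 43 genes (82.7%, against 49.2% of all expressed genes) and below 0 for 9. It passed 1.2-fold higher for 18 genes (34.6%, against 14.9% of all expressed genes) and 1.2-fold lower for 1 gene, *Pttg1* (1.92%, against 15.2%). At 1.5-fold, the fold part of the study's threshold, 1 gene, *Smc4*, was higher (background 2.46%) and 0 were lower (background 5.19%). The study also set a limit on the false discovery rate, which is not applied here. The median log2 ratio was 0.15, with quartiles of 0.0079 and 0.32 and a range from -0.29 for *Pttg1* to 0.64 for *Smc4*, while the median over all expressed genes was -0.0037. Levels ran from 1.13 to 236 RPKM in Ctrl and from 1.41 to 264 RPKM in Eomes, with medians of 33.5 and 34.8 RPKM. Summed over the 52 genes, the level was 2578.82 RPKM in Ctrl (0.459% of all RPKM) and 2735.76 RPKM in Eomes (0.498%). The order of the genes by level was nearly the same in both libraries (across 52 genes, r = 0.995 and rho = 0.992), with *Ube2c* highest and *Cenpf* lowest in each.

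These differences lay within the counting error for some of the genes and outside it for most. From RPKM, transcript length and depth, each gene had between about 113 and 11525 reads in a library, and a 95% interval of the log2 ratio was computed from those reads. The interval lay above 0 for 31 genes, below 0 for 5 and across 0 for 16. Intervals were not computed for all expressed genes, so these counts have no background share beside them. Whether the counts set the mitosis genes apart from other expressed genes was not tested. The interval covers counting error only, rests on approximate reads, and says nothing of how much cultures of 1 group would differ. The reads were computed with the longest transcript, so they may be too many and the interval too narrow. Some genes also share sequence with others, which could move reads between them. Whether the authors counted by strand is not given in the sources used here, so reads of a gene and of a partner on the other strand cannot be told apart, and overlaps of over 10% of the exon bases are given beside the genes they touch. Smaller ones were those of *Plk1* (7.1%), *Cdc25b* (2.98%), *Cdc20* (2.96%) and *Kif18a* (0.33%). Of the 50-base stretches of a gene, those found in another gene too were most frequent for *Ccnb1*. Next came the genes with large overlaps on the other strand, *Kif20a* (31.2%), *Prc1* (26.6%), *Ncapg* (18.5%), *Ube2c* (17.8%), *Kif4* (16.2%) and *Ccna2* (15.9%). They were followed by *Cdc20* (11.6%), *Plk1* (10.9%), *Racgap1* (7.9%), *Ndc80* (5.3%) and *Kif2c* (4.7%).

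**Figure D2:**
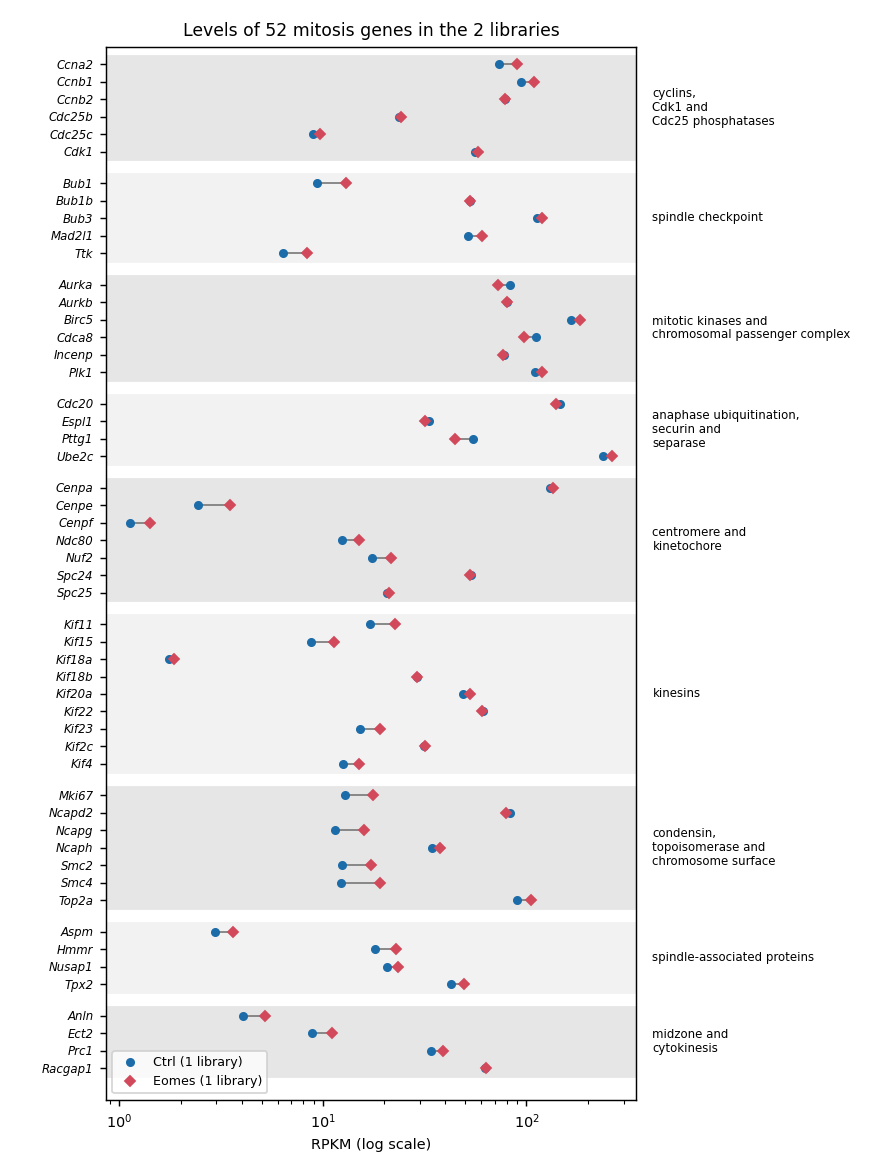
RPKM (log axis) of each of the 52 genes in the Ctrl library (circles) and the Eomes library (diamonds), 1 library each, grouped by role in shaded bands. The pairs of points stay close together over a range from 1.13 to 264 RPKM, and the widest gap is that of Smc4, from 12.22 to 19.1 RPKM.

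The ratio moved with the base composition of the transcript, in these genes and in the whole table. Across the 52 genes the log2 ratio had r = -0.70 and rho = -0.75 with GC content, r = 0.57 and rho = 0.57 with transcript length, and r = -0.60 and rho = -0.65 with the log2 level in Ctrl. These are descriptions over genes that share both libraries. Over 9899 expressed genes with a reference transcript, r was -0.30 and rho -0.44 with GC content, and by decile of GC content their median ratio stepped from 0.25 on the log2 scale at the lowest GC content down to -0.10 at the highest. The 26 mitosis genes of lower GC content (38.3 to 46.3%) had a median log2 ratio of 0.31, with 25 above 0 and 17 past 1.2-fold higher. The 2796 expressed genes in the same GC range had a median of 0.16, with 75.6% above 0 and 32.4% past 1.2-fold higher. The 26 mitosis genes of higher GC content (46.6 to 56.1%) had a median of 0.0099, with 18 above 0 and 1, *Mki67*, past 1.2-fold higher, beside a median of -0.04, 40.7% above 0 and 7.27% past 1.2-fold higher for the 4955 genes in that range.

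Each ratio was therefore also centred on the median of expressed genes of like GC content, in 20 bins. After centring, 43 of the 52 genes were above 0 (background 49.9%), but these were not the same 43 genes as before. *Incenp*, *Cdc20*, *Espl1*, *Spc24*, *Kif22* and *Ncapd2* moved from below to above 0. *Bub3*, *Mad2l1*, *Cenpa*, *Spc25*, *Kif18a* and *Nusap1* moved from above to below 0. The median was 0.097, and only 3 genes passed 1.2-fold higher (background 8.78%), *Mki67* at 0.38, *Smc4* at 0.36 and *Cenpe* at 0.33. *Pttg1*, at -0.38, stayed past 1.2-fold lower (background 14.4%). Past 1.5-fold were 0 of the 52 genes in either direction, where 191 of 9899 expressed genes passed higher and 486 lower. The medians of the lower and higher GC groups were 0.12 and 0.07 after centring. Across the 52 genes r with GC content was then -0.11, while r with length was still 0.45. Whether GC content, length or the Eomes vector sets the ratios was not tested, and the centred value is given beside each group below.

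**Figure D3:**
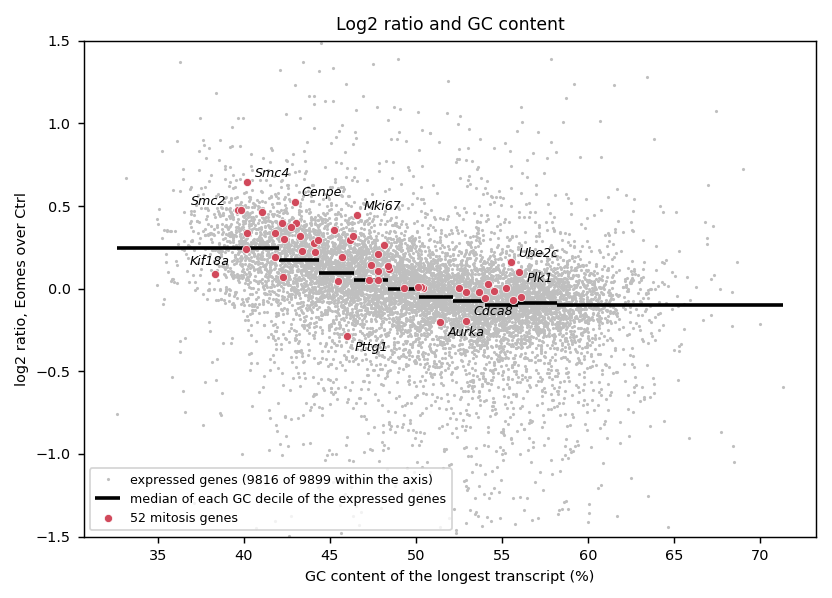
Log2 ratio of Eomes over Ctrl (vertical axis) against GC content of the longest transcript (%, horizontal axis) for expressed genes (small grey points, 9816 of 9899 within the axis), the median of each GC decile (black lines), and the 52 mitosis genes (large points). The black lines step down from 0.25 to -0.10, and most mitosis genes lie just above the line of their GC content.

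Mitotic entry genes differed little between the libraries. All 6 genes for the mitotic cyclins, Cdk1 and the Cdc25 phosphatases had a log2 ratio above 0, with a median of 0.08 (0.07 after GC centring). *Cdk1*, the kinase that starts mitosis, was at 56.04 RPKM in Ctrl and 58.02 RPKM in Eomes, a log2 ratio of 0.05 whose interval, from -0.0083 to 0.11, crossed 0. *Ccna2* encodes cyclin A2, which acts from S phase to early mitosis, and was at 73.28 and 89.8 RPKM, a log2 ratio of 0.29 (interval 0.23 to 0.35). It was the only gene of this group past 1.2-fold, and 17.2% of its exon bases overlap *Exosc9* on the other strand. *Ccnb1* encodes cyclin B1, the main partner of Cdk1, and went from 93.51 RPKM in Ctrl to 108.9 RPKM in Eomes, a log2 ratio of 0.22. Of its 50-base stretches, 42.1% also occur elsewhere, mainly in the pseudogene *Ccnb1-ps*, so its value is uncertain. The second B-type cyclin gene, *Ccnb2*, was level at 78.57 and 78.8 RPKM. The phosphatases *Cdc25b* (23.75 and 24.2 RPKM) and *Cdc25c* (8.97 and 9.65 RPKM), which remove inhibitory phosphates from Cdk1, had log2 ratios of 0.03 and 0.11, with intervals that crossed 0.

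The spindle checkpoint genes split into higher and level members. All 5 were above 0, with a median log2 ratio of 0.24, but after GC centring 3 were above and 2 below 0, with a median of 0.05. *Bub1*, a checkpoint kinase at the kinetochore, was at 9.37 RPKM in Ctrl and 12.92 RPKM in Eomes, a log2 ratio of 0.46 (interval 0.31 to 0.62, centred 0.24). *Ttk*, which encodes the kinase Mps1 that starts checkpoint signalling, was at 6.33 and 8.33 RPKM, a log2 ratio of 0.40 (interval 0.19 to 0.60). *Mad2l1*, which encodes the inhibitor Mad2, was at 51.4 and 60.66 RPKM, a log2 ratio of 0.24 that became -0.04 after GC centring. *Bub3* (113.1 and 118.9 RPKM) had a log2 ratio of 0.07, and -0.13 after GC centring. *Bub1b*, which encodes BubR1, another inhibitor in the same complex, was level at 52.93 and 53.02 RPKM.

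Among the mitotic kinases and the chromosomal passenger complex, 3 of 6 genes were above 0 and 3 below, and none passed 1.2-fold in either direction. The median log2 ratio of the 6 genes was -0.0049, or 0.08 after GC centring, when 4 of 6 were above 0. *Plk1*, the polo-like kinase of centrosome maturation and mitotic entry, was at 110.35 RPKM in Ctrl and 118.5 RPKM in Eomes, a log2 ratio of 0.10 (0.19 after GC centring). *Aurka*, the kinase of the spindle poles, was lower, at 83.25 RPKM in Ctrl and 72.41 RPKM in Eomes, a log2 ratio of -0.20 (interval -0.28 to -0.13, centred -0.14). *Aurkb*, the kinase of the passenger complex, was level at 80.39 and 80.48 RPKM. Its partner genes did not share 1 direction. *Birc5*, which encodes survivin, was at 165.99 and 183.4 RPKM, a log2 ratio of 0.14 (interval 0.11 to 0.18). *Cdca8*, which encodes borealin, was at 111.25 and 97.17 RPKM, a log2 ratio of -0.20 (interval -0.27 to -0.12, centred -0.13). *Incenp*, the scaffold of the complex, was at 77.51 and 76.9 RPKM, and its log2 ratio of -0.011 was above 0 once the libraries were divided by their summed RPKM.

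The genes of anaphase were the group with the lowest median, -0.06, and 3 of 4 were below 0. After GC centring, however, 3 of 4 were above 0, with a median of 0.03. *Pttg1* encodes securin, the inhibitor of separase, and lies at chr11:43420250-43426251 of mm10. It was at 54.62 RPKM in Ctrl and 44.75 RPKM in Eomes, a log2 ratio of -0.29 (interval -0.39 to -0.19), the lowest of the 52 genes. Unlike the other lower genes it has a GC content (46.0%) in the range where most genes were higher, so its centred value, -0.38, was farther from 0. *Cdc20*, which activates the anaphase-promoting complex, was at 145.92 and 139.1 RPKM, a log2 ratio of -0.07 (centred 0.02). *Espl1*, which encodes separase, was at 33.05 and 31.91 RPKM, a log2 ratio of -0.05 (centred 0.04). *Ube2c* encodes the ubiquitin-conjugating enzyme of the anaphase-promoting complex and had the highest level of all 52 genes. It was at 236.5 RPKM in Ctrl and 264.3 RPKM in Eomes, a log2 ratio of 0.16 (interval 0.12 to 0.20, centred 0.25), with 27.0% of its exon bases overlapping *Tnnc2* on the other strand.

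At the centromere and kinetochore, 6 of 7 genes were above 0, with a median log2 ratio of 0.28 (0.10 after GC centring). *Cenpe*, a kinesin that moves chromosomes to the spindle equator, was at 2.43 RPKM in Ctrl and 3.5 RPKM in Eomes, a log2 ratio of 0.53 (interval 0.33 to 0.72). This was the second highest ratio of the 52 genes, from about 368 and 522 reads. *Cenpf*, a large protein of the outer kinetochore, had the lowest level, at 1.13 and 1.41 RPKM, with a log2 ratio of 0.32 and a wide interval from 0.07 to 0.57. The subunits of the Ndc80 complex, which binds microtubules, were unequal. *Ndc80* was at 12.37 and 15.0 RPKM, a log2 ratio of 0.28, and *Nuf2* at 17.42 and 21.48 RPKM, a log2 ratio of 0.30. The other pair of subunits, *Spc24* (53.39 and 52.58 RPKM) and *Spc25* (20.53 and 21.18 RPKM), had log2 ratios of -0.022 and 0.045, with intervals that crossed 0. After GC centring the 4 subunits stood at 0.13, 0.10, 0.04 and -0.05. *Cenpa*, the histone variant that marks the centromere, was at 130.18 and 134.8 RPKM, a log2 ratio of 0.05 whose interval crossed 0.

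Of the 9 kinesin genes 8 were above 0, with a median log2 ratio of 0.12 (0.10 after GC centring), and 3 passed 1.2-fold higher. *Kif11*, the motor that pushes the spindle poles apart, was at 17.07 RPKM in Ctrl and 22.48 RPKM in Eomes, a log2 ratio of 0.40 (interval 0.30 to 0.49, centred 0.20). *Kif15*, which can act beside Kif11, was at 8.76 and 11.36 RPKM, a log2 ratio of 0.38 (centred 0.18). *Kif23*, a motor of the central spindle, was at 15.23 and 18.98 RPKM, a log2 ratio of 0.32 (centred 0.23). *Kif4*, a chromosome-bound motor, followed at 12.54 and 15.03 RPKM, a log2 ratio of 0.26, but 16.7% of its exon bases overlap *Pdzd11* on the other strand. *Kif20a*, a motor of cytokinesis, was at 48.71 and 52.99 RPKM, a log2 ratio of 0.12, with 34.6% of its exon bases overlapping *Cdc23* on the other strand, the largest such overlap among the members. *Kif18b* (28.99 and 29.02 RPKM), *Kif2c* (31.44 and 31.67 RPKM), a microtubule depolymerase, and *Kif22* (61.27 and 60.52 RPKM), a chromosome-bound motor, differed by 0.02 or less on the log2 scale. *Kif18a* was at 1.75 and 1.86 RPKM, and its roughly 113 and 118 reads left an interval from -0.30 to 0.47.

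The condensin, topoisomerase and chromosome surface genes had the highest median of the 9 roles, 0.45 (0.19 after GC centring), and 6 of 7 were above 0. *Smc4* encodes an ATPase subunit shared by both condensins and lies at chr3:69004738-69034623 of mm10. It was at 12.22 RPKM in Ctrl and 19.1 RPKM in Eomes, a log2 ratio of 0.64, the only one of the 52 past 1.5-fold, and held position 198 of 9925 expressed genes from the highest ratio down. Its interval, from 0.53 to 0.76, spanned the 1.5-fold threshold of 0.585, and its centred value of 0.36 was inside the threshold. *Smc2*, which pairs with Smc4, was at 12.35 and 17.17 RPKM, a log2 ratio of 0.48 (interval 0.37 to 0.58, centred 0.19). *Ncapg*, a subunit of condensin I, was at 11.4 and 15.87 RPKM, a log2 ratio of 0.48, with 20.8% of its exon bases overlapping *Lcorl* on the other strand. The other subunits of condensin I were closer to level. *Ncaph* was at 34.21 and 37.68 RPKM, a log2 ratio of 0.14, and *Ncapd2* at 83.04 and 79.78 RPKM, a log2 ratio of -0.06. The 3 higher subunits have a GC content of 39.7 to 40.2% and the other pair 48.3% and 54.0%, and centring brought the 5 values to between 0.045 and 0.36. *Top2a*, the topoisomerase that untangles sister chromatids, was at 89.71 and 105.25 RPKM, a log2 ratio of 0.23 (interval 0.19 to 0.27, centred 0.08). *Mki67* encodes Ki-67, the proliferation marker that coats mitotic chromosomes, and was at 12.88 and 17.54 RPKM, a log2 ratio of 0.45 (interval 0.37 to 0.52). At 46.6% GC it kept the highest centred value of the 52 genes, 0.38.

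All 4 spindle-associated genes and all 4 genes of the midzone and cytokinesis were above 0. Their medians were 0.25 and 0.26, or 0.13 and 0.08 after GC centring. *Hmmr*, a microtubule-binding protein of the spindle poles, was at 18.03 RPKM in Ctrl and 22.78 RPKM in Eomes, a log2 ratio of 0.34. *Aspm*, which focuses the spindle poles, was at 2.96 and 3.63 RPKM, a log2 ratio of 0.29. *Tpx2*, the activator of Aurora A, was at 42.74 and 49.32 RPKM, a log2 ratio of 0.21, although *Aurka* itself was lower in the Eomes library. *Nusap1* (20.55 and 23.48 RPKM), which bundles microtubules, had a log2 ratio of 0.19 that became -0.03 after GC centring. *Anln* encodes anillin, a scaffold of the contractile ring, and was at 4.06 and 5.19 RPKM, a log2 ratio of 0.35 (interval 0.15 to 0.56, centred 0.25). *Ect2*, the exchange factor that activates RhoA for cytokinesis, was at 8.79 and 11.09 RPKM, a log2 ratio of 0.34 (centred 0.05). *Prc1*, which crosslinks midzone microtubules, was at 34.02 and 38.92 RPKM, a log2 ratio of 0.19, with 26.9% of its exon bases overlapping *Rccd1* on the other strand. *Racgap1*, the partner of Kif23 in centralspindlin, was level at 62.6 and 63.0 RPKM.

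**Figure D4:**
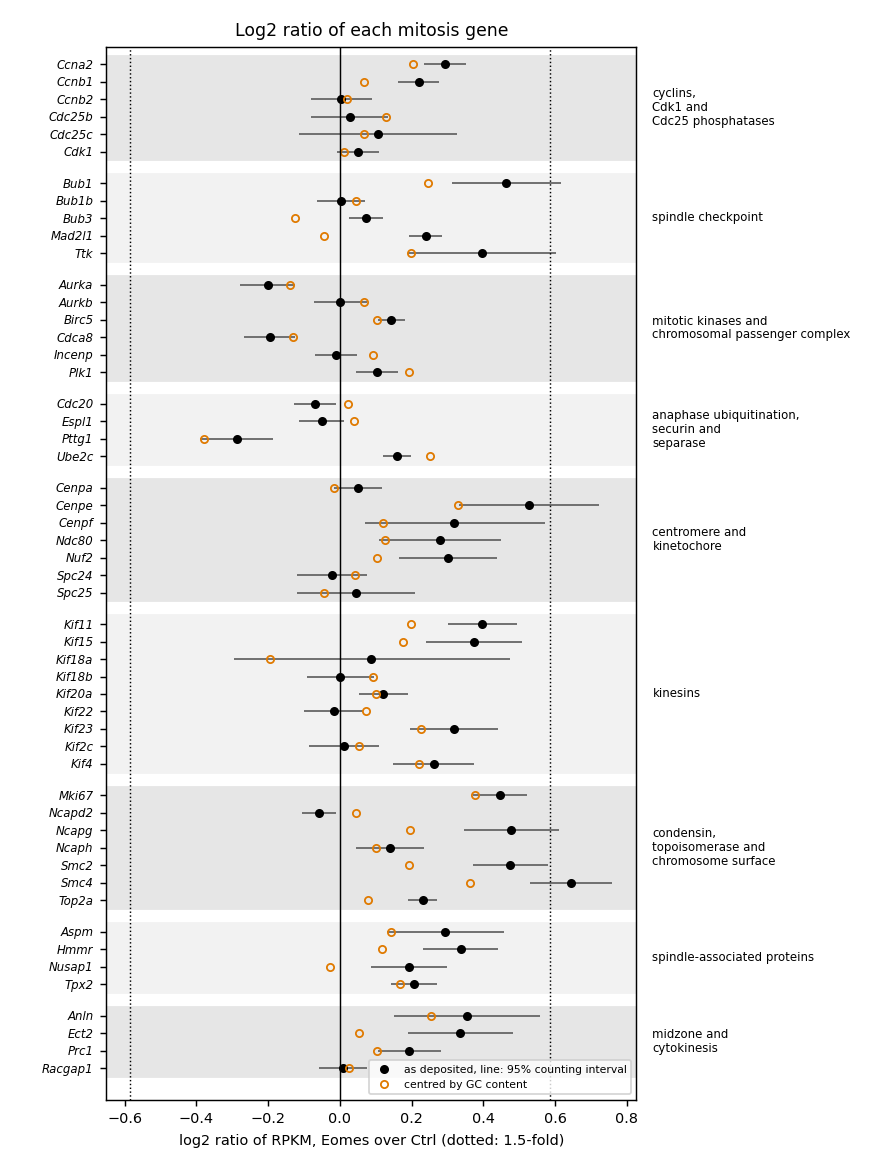
Log2 ratio of Eomes over Ctrl (horizontal axis) for each of the 52 genes as deposited (filled points, with lines for the 95% counting interval) and after centring on genes of like GC content (open points), by role. Dotted lines mark 1.5-fold. Only Smc4 lies past a dotted line, and its open point, like those of most genes that are high as deposited, lies nearer to 0.

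A wider list of other genes of mitosis showed a smaller difference in the same direction. Of its 142 genes 140 were listed, and all 140 were expressed. Of these, 99 were above 0 (70.7%, against 49.2% of all expressed genes) and 41 below, with a median log2 ratio of 0.09. After GC centring the median was 0.05, with 82 above 0 (58.6%, against 49.9%) and 58 below. Past 1.5-fold higher were 5 genes, of which 4 are described here, *Knl1*, *Depdc1a*, *Kif20b* and *Cenpk*, and past 1.5-fold lower was 1 gene, where 2.46% and 5.19% of all expressed genes passed. *Knl1*, the kinetochore scaffold that recruits Bub1, was at 1.12 RPKM in Ctrl and 2.05 RPKM in Eomes, a log2 ratio of 0.87 (interval 0.59 to 1.15), and its centred value of 0.59 was the only one still past the threshold. *Depdc1a* was at 2.16 and 3.85 RPKM, a log2 ratio of 0.83. The kinesin *Kif20b* (1.61 and 2.59 RPKM) and the kinetochore gene *Cenpk* (4.83 and 7.27 RPKM) had log2 ratios of 0.69 and 0.59. These 4 genes were at a low level, under 8 RPKM in both libraries. The 1 gene past 1.5-fold lower was *Psrc1*, a microtubule-associated protein, at 35.39 and 23.5 RPKM, a log2 ratio of -0.59 (-0.50 after GC centring).

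Within that list the subunits and regulators of cohesin, the ring that holds sister chromatids together, had the highest median as deposited, 0.33 (13 genes). Of these, 12 were above 0 (92.3%, against 49.2% of all expressed genes). After GC centring the cohesin median was 0.13, below the 0.18 of the 3 condensin II genes, and 10 of 13 were above 0 (76.9%, against 49.9%). The 17 genes of the anaphase-promoting complex and its regulators had a median of 0.0007, with 9 above 0 (52.9%). After GC centring their median was 0.01, again with 9 above 0. The 16 transcriptional regulators of G2 and mitosis genes had a median of 0.07, with 14 above 0 (87.5%, against 49.2% of all expressed genes). After GC centring their median was 0.09, with 10 above 0 (62.5%, against 49.9%). *Foxm1*, an activator of these genes, was at 22.5 RPKM in Ctrl and 23.54 RPKM in Eomes, a log2 ratio of 0.07. *Mybl2*, which acts with Foxm1 at CHR promoters, was at 50.67 and 53.48 RPKM, a log2 ratio of 0.08. The repressors *E2f7* (4.86 and 5.05 RPKM) and *E2f8* (23.01 and 26.45 RPKM) had log2 ratios of 0.06 and 0.20. *Trp53*, which represses mitosis genes through p21, was at 175.58 and 182.4 RPKM, a log2 ratio of 0.055.

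As deposited, the lists for other phases of the cell cycle had medians nearer to 0 or below it, but after GC centring the median of the DNA replication genes, 0.08, was above that of the other mitosis genes, 0.05. The 45 DNA replication genes had 32 above 0 (71.1%, against 49.2% of all expressed genes) and a median log2 ratio of 0.05 (0.08 after GC centring). Past 1.2-fold were 5 higher and 0 lower. The share past 1.2-fold higher, 11.1%, was below the 14.9% of all expressed genes, and the share lower, 0%, below their 15.2%. Among 17 expressed G1 cyclins, kinases, CDK inhibitors and related genes, 7 were above 0 (41.2%, against 49.2%) and 10 below. Their median was -0.03 (-0.11 after GC centring). Past 1.2-fold were 2 genes higher and 6 lower. These were 11.8% higher, against 14.9% of all expressed genes, and 35.3% lower, against 15.2%. The median of this list was -0.0005 when the libraries were divided by their summed RPKM. *Cdkn2d*, which encodes the inhibitor p19Ink4d, was the 1 gene of these lists past 1.5-fold, at 44.43 RPKM in Ctrl and 28.6 RPKM in Eomes, a log2 ratio of -0.64 (centred -0.54). *Cdkn1a*, which encodes the inhibitor p21, was at 258.66 and 183.4 RPKM, a log2 ratio of -0.50 (interval -0.54 to -0.45, centred -0.39). The differences between the lists were not tested.

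**Figure D5:**
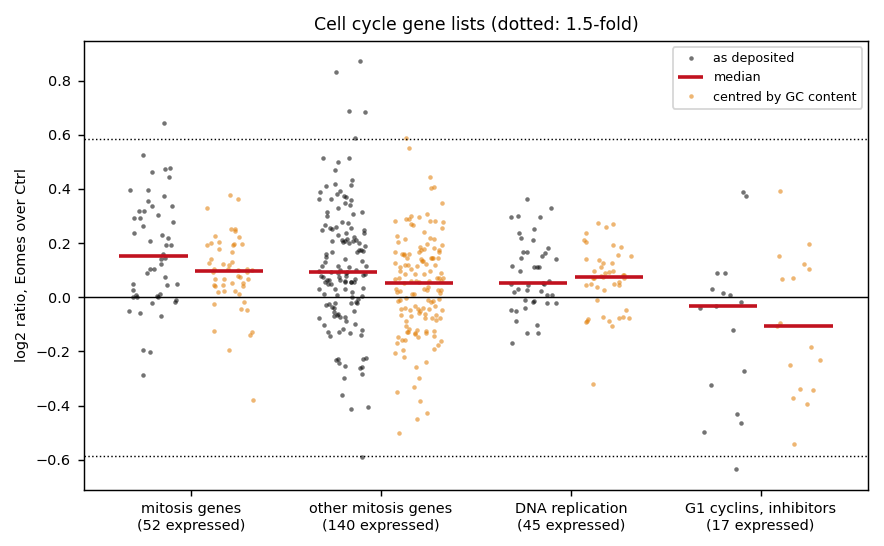
Log2 ratio of Eomes over Ctrl (vertical axis) for the expressed genes of 4 cell cycle lists, as deposited (dark points) and centred on genes of like GC content (light points), with the median of each set as a bar and dotted lines at 1.5-fold. The medians as deposited are 0.15 for the mitosis genes, 0.09 for other mitosis genes, 0.05 for DNA replication genes and -0.03 for G1 cyclins and CDK inhibitors.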

How the data were processed

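RNA of 2 cultures of OT-I cells was sequenced on an Illumina HiSeq instrument, as 1 library per group. The authors filtered reads with SOAPnuke, mapped them with HISAT and Bowtie2 to mm10 and computed expression with RSEM. The submitters' processing notes name HISAT2. Tool versions, strand setting and annotation are not given in the sources used here. The deposited values are FPKM per gene symbol in the file headers (RPKM in the methods), printed with 2 decimals and listed from 0.01 upward, with no normalization between libraries named. Symbols turned into dates (20 in Ctrl, 19 in Eomes) were left out.

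Log2 ratios were taken with unlisted values set to 0.01. Software was pandas 2.3.3, scipy 1.17.1, numpy 2.4.6 and matplotlib 3.10.9, run under Python 3.11.15. Genes at 1 RPKM or more in at least 1 library were called expressed. The fold thresholds were 1.5, as in the study but without its limit on the false discovery rate, and 1.2. Length and GC content came from the longest protein-coding transcript in GENCODE vM21 (99.7% of expressed genes). RSEM uses its own lengths, so reads are approximate. Depth was read from the steps of low values of genes with 1 annotated transcript (88 in Ctrl, 97 in Eomes). Intervals are exact binomial (Clopper-Pearson) at 95% on the approximate reads, and were chosen after seeing the data. The reading of depth and the centring by GC content were checked on simulated data, and the intervals were not. Antisense overlap and shared 50-base stretches were counted in the same annotation. Promoters were those of RefSeq, and stretches with over 30 bases in exons of protein-coding genes were not printed. Protein sequences were not analysed here.

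The genes and lists were chosen with earlier results of these data known. Named were all 52 genes, genes of the other lists past 1.5-fold (1 of which is not reported here), *Foxm1*, *Mybl2*, *E2f7*, *E2f8*, *Trp53*, *Cdkn1a*, *Eomes* and cell type markers. Cohesin, condensin II, anaphase-promoting complex and regulator subgroups belong to the other mitosis list. Alternatives were pseudocounts of 0.1 and 1, no minimum RPKM or 5, a 2-fold threshold, 3 scalings between libraries, and centring by GC content or length.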

Additional observations from a re-analysis of the deposited data

How the results depend on the processing

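No paired analysis was possible because each group has 1 library. The count of mitosis genes past the fold threshold higher went from 1 to 0 at 2-fold and to 0 with GC centring. The count past 1.2-fold higher went from 18 to 3 with GC centring. The count past 1.2-fold lower went from 1 to 0 with length centring and to 0 when libraries were divided by summed RPKM. The median of the other mitosis genes went from 0.09 to 0.0544 with GC centring. The cause was not tested. The median of the 52 genes was between 0.0966 and 0.1839 under all alternatives run. Above 0 were 43 to 46 of the 52 genes, or 39 of the 48 genes left with a minimum of 5 RPKM. The genes above 0 were not the same throughout, as GC centring moved some across 0 in each direction. GC centring moved 26 of 52 ratios out of their counting interval and length centring 5 of 52, while the other scalings, pseudocounts and filters moved 0. The median over all expressed genes was -0.0037, the trimmed mean -0.0001 and the ratio of summed RPKM -0.0319 on the log2 scale, so *Incenp*, *Kif22* and *Spc24* change sign under the last. With 1 library per group the spread between cultures is unknown, and genes of few reads, such as *Kif18a* and *Cenpf*, have the widest intervals.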
